A study of Mus musculus with 4 samples.

Results

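Replication timing (RT) was examined at the H2 genes, the genes of the mouse major histocompatibility complex (MHC) on chromosome 17. The members were the 34 protein-coding genes of GENCODE vM21 on chromosome 17 whose symbol starts with H2-, of 21755 protein-coding genes on the 19 autosomes and X. RT of a gene is the deposited log2 of early over late S-phase signal in the 50 kb bin that holds the gene start, so that RT above 0 means a higher early than late signal, and all RT values below are levels on this log2 scale. The cells were F121-9, a diploid hybrid mESC line of the 129 and cas strains, grown in N2B27 medium with 2i and LIF, with no further treatment. Nascent DNA was marked with BrdU, a thymidine analog, and immunoprecipitated from cells that flow cytometry had separated into an early and a late part of S-phase, with 2 libraries of each. The deposited profile holds 1 value per bin, labeled with the cell line but with no replicate or allele. Which of these 4 libraries entered it is not stated. No error between replicates can therefore be given for any gene, no comparison below carries a test, and the number of reads behind a bin is unknown. As a yardstick, the SD of single bins inside segments of nearly constant timing was 0.16 log2, which makes 0.66 log2 3 times the SD of a difference between 2 bins. Gene expression was not measured, so the labeled cell type could not be checked against marker transcripts.

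The MHC holds the genes by which cells display peptides to T cells. Class I molecules pair an H2 heavy chain with beta-2 microglobulin and present peptides from inside the cell on nearly all nucleated cells, whereas class II molecules are alpha and beta chain pairs of antigen-presenting cells, loaded with the help of DM and DO. The classical class I genes H2-K and H2-D flank the class II and class III genes, and the nonclassical class I genes follow in the Q, T and M regions, where the number of genes is known to vary between mouse strains. Cultured mESCs are known to carry little class I protein on their surface. Coordinates and genes below are those of the reference assembly (mm10, GRCm38), which derives from another strain than either parent of F121-9.

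The 34 H2 genes had their starts in 26 bins of chromosome 17. The span from the first to the last of these bins, 34000001 to 37500000, held 70 bins, and each had a value. Of the H2 genes, 29 (85.3%) were in bins with RT above 0. The same was true of 72.9% of the 21666 protein-coding genes with a value and of 82.4% of those on chromosome 17, so the share of early H2 genes was close to that of their own chromosome. Median RT was 2.45 over the H2 genes, 2.27 over all protein-coding genes and 3.12 over those of chromosome 17. The other 140 protein-coding genes with a start in the span had a median of 3.44, and 104 of them were above RT 3. Of the 34 H2 genes, 9 (26.5%) were above RT 3, against 35.8% of all protein-coding genes and 53.1% of those on chromosome 17. The H2 genes ran from 3.63 at H2-Oa, a level above 91.7% of protein-coding genes, down to -1.74 at H2-M2, above 15.2% of them. The class Ia and class II genes, H2-Ke6 and the genes of the Q and T regions were all early, and the 5 late genes were in the M region.

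**Figure D1:**
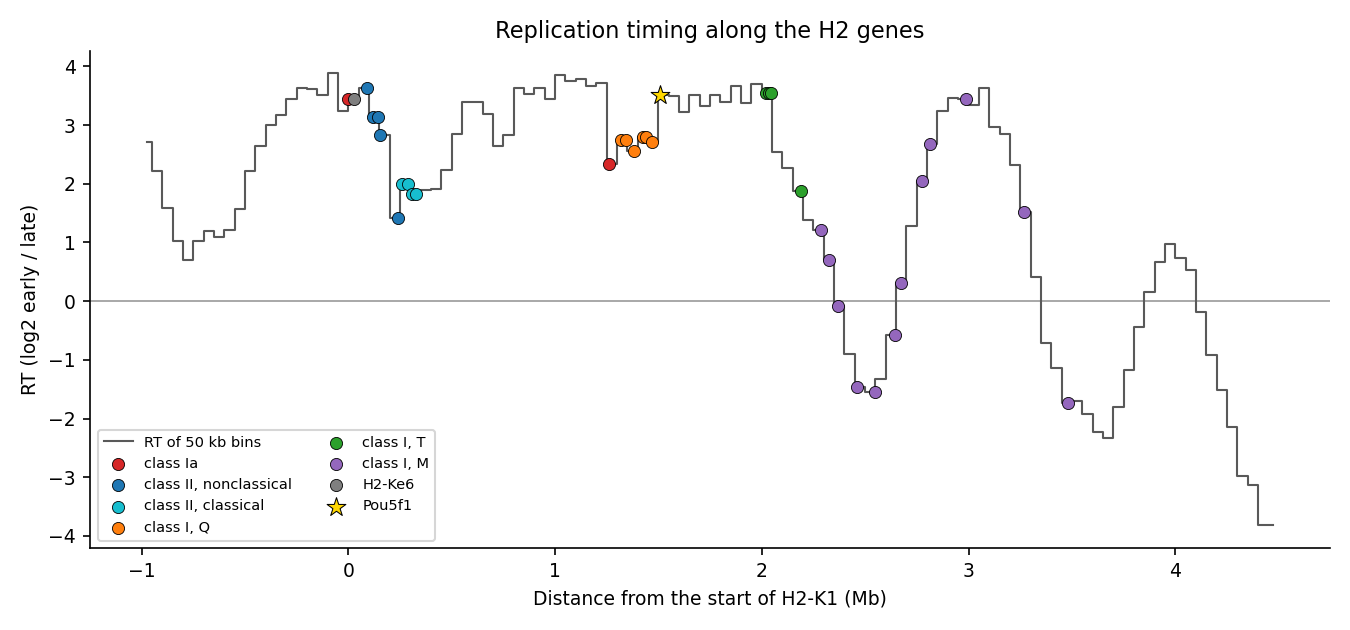
RT (log2 early over late, vertical axis) of the 50 kb bins is drawn as a line against distance from the start of H2-K1 in Mb, with each H2 gene as a point at its start, colored by group, and Pou5f1 as a star. H2-Ob and the classical class II genes sit in a dip of the early domain, and the D and Q genes in a shallower one. The other nonclassical class II genes lie before the first dip. The M genes run down to -1.54, up to 3.44 and down again to -1.74.

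The plot of RT along the locus reads from H2-K1 through the class II genes and on to the M region. From the K end to H2-T22 the profile stayed early. It had dips over H2-Ob and the classical class II genes, over the C4b bin of the class III region and over H2-D1 and the Q genes. Beyond H2-T22 it fell to a late valley of M10 genes, rose to an early plateau at H2-M5, and fell again to H2-M2. The largest steps between neighboring bins lay at the fall into the class II dip, before H2-D1, past H2-T22 and within the last descent to H2-M2. A difference of over 1 log2 between neighboring bins was found for 0.939% of the 51004 neighboring pairs in the genome, and 5 such steps lay in the span.

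The K end was early. H2-K1, which encodes a classical class I heavy chain, had an RT of 3.45, a level above 81.9% of protein-coding genes. Its start lay at the edge of that bin and its body mostly in the previous bin, where RT was 3.24, so that interpolation between bin centers gave 3.35. H2-Ke6 shared the bin and the value. It carries an H2 symbol by position only and encodes a hydroxysteroid dehydrogenase, not an MHC chain. The nearest protein-coding gene start before that of H2-K1 was that of Rps18, a ribosomal protein gene, at an RT of 3.24.

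All 9 class II genes, in 6 bins, were early, where 72.9% of all protein-coding genes and 82.4% of those on chromosome 17 are. Their median was 1.99, below the 2.27 of all protein-coding genes and the 3.12 of those on chromosome 17. The 9 genes fell into an early and an intermediate part. Among the nonclassical class II genes, H2-Oa, the alpha chain of DO, had the highest value of any H2 gene, 3.63. H2-DMa and H2-DMb2, the alpha chain and one beta chain of the peptide editor DM, shared a bin at 3.14, and H2-DMb1, the other DM beta chain gene, was at 2.83. H2-Ob, which encodes the DO beta chain, was at 1.43, the lowest of the class II genes. The chains of DO thus lay on either side of a step, 2.21 log2 apart and 147 kb from each other, and the DM chain genes lay between them. The step itself, from the H2-DMb1 bin down to the H2-Ob bin, was -1.40 log2, and 0.355% of neighboring bins in the genome differed by at least as much. It ran through the genes of class I peptide supply. Psmb9 and Psmb8, immunoproteasome subunits, and Tap1, a subunit of the peptide transporter TAP, shared the H2-DMb1 bin at 2.83, and Tap2, the partner of Tap1, shared the H2-Ob bin at 1.43.

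The 4 classical class II genes were at nearly the same level. H2-Ab1 and H2-Aa, the beta and alpha chains of I-A, shared a bin at 1.99, and H2-Eb1 and H2-Eb2, the beta chain of I-E and a related gene, shared the next bin at 1.83, a difference within the noise SD of a difference (0.22). Of all protein-coding genes, 46.1% and 44.2% were later than these bins. The dip from 34200001 to 34450000 held 5 bins with a mean RT of 1.81 (SD over bins 0.22). Past it RT rose over the butyrophilin-like genes, from 1.90 at Btnl2 and Btnl1 to 2.23 at Btnl4 and 2.85 at Btnl6, and reached 3.40 at Notch4 in the class III region.

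The promoter of H2-Eb1 is shown as that of a class II gene in the dip and the promoter of H2-K1 as that of a class I gene on the early side of it. Both are the 250 bases before the RefSeq start (GRCm38.p6), written 5′ to 3′ on the strand of the gene, in lower case with matches to CCAAT on either strand (CCAAT or ATTGG) and to the kappa B site GGGGATTCC in capitals. H2-Eb1 lies at chr17:34305617-34305866 on the plus strand and H2-K1 at chr17:34000348-34000597 on the minus strand.
H2-Eb1: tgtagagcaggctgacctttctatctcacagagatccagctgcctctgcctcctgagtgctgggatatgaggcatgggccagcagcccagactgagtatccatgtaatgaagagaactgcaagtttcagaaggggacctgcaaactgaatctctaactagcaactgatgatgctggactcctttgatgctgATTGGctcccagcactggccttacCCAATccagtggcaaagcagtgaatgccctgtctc
H2-K1: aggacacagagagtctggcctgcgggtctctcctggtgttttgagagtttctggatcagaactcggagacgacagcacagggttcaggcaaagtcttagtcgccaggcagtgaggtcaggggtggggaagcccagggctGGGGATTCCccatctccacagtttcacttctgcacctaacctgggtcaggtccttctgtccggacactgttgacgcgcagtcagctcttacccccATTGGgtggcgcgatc
The H2-Eb1 window held 2 CCAAT matches, one on each strand, and the H2-K1 window held 1 CCAAT match and 1 kappa B match.

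**Figure D2:**
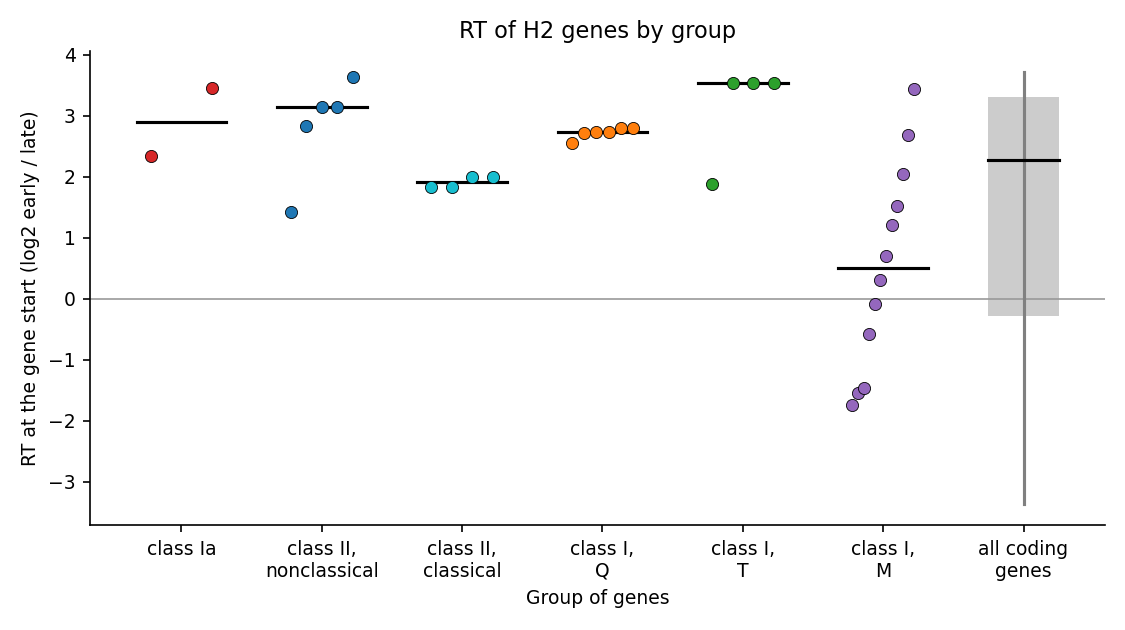
Each point is the RT (log2 early over late) of one H2 gene, by group, with a black line at the group median. For all protein-coding genes the bar spans the quartiles (-0.28 to 3.31), the line the 5th to 95th percentile (-3.36 to 3.71) and the black line the median (2.27). The classical class II and Q genes lie in narrow ranges and the 12 M genes spread from -1.74 to 3.44.

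The class III region, between the class II genes and H2-D1, holds genes of complement, tumor necrosis factors and other functions but no H2 gene. All 17 listed class III genes with a value were early, where 82.4% of chromosome 17 genes are, and 16 were above RT 3, where 53.1% are. Tnf and Lta, which encode tumor necrosis factor and lymphotoxin alpha, were at 3.73, and C2 and Cfb, complement genes, at 3.53. C4b, the complement C4 gene, was the lowest at 2.64. The C4b bin and the bin after it (2.83) lay below the other 12 bins of the segment, which ran from 3.18 to 3.86, and these were the bins of the segment where the most sequence was repeated elsewhere in the genome, at 25.2% and 40.4%.

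H2-D1, the classical class I gene at the far end of the class III region, was later than its counterpart H2-K1. Its RT was 2.34 against 3.45, a difference of 1.11 log2 (0.66 with values interpolated between bin centers, which is at the limit of 3 times the SD of a difference between bins), and the coding sequences were 91.1% identical. The step from the bin of Tnf, Lta and Ddx39b (3.73) down to the H2-D1 bin was -1.38 log2, matched or exceeded by 0.371% of neighboring bins. The H2-D1 bin deviated by -0.89 from the mean of the bins beside it. H2-D1 and H2-Ob, with a deviation of -0.99, were the 2 members past 3 times 0.19, the noise SD of such a deviation, and H2-DMb1 was next at 0.55. The H2-D1 bin held 1 protein-coding gene start and 7.49% repeated sequence, and the H2-Ob bin 24.5%.

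The 6 Q genes followed at nearly a single level, with a median of 2.74. H2-Q1 and H2-Q2 shared a bin at 2.74, H2-Q4 was lowest at 2.55, H2-Q6 and H2-Q7, which are genes of the Qa-2 family, shared a bin at 2.80, the highest, and H2-Q10, which encodes a class I molecule secreted by the liver, was at 2.71. The differences among the 4 bins were at most 0.24, close to the noise SD of a difference of 0.22. D and Q formed a segment of 5 bins with a mean of 2.63, between class III at 3.46 and the segment from Pou5f1 to H2-T24 at 3.48. The Q genes resemble each other, with 80.0 to 95.6% identity between coding sequences over 15 pairs and H2-Q6 and H2-Q7 the most alike. The share of 50-base windows that occur more than once in the genome averaged 37.1% over the D and Q segment and reached 73.0% in the H2-Q6 and H2-Q7 bin, against a median of 5.75% over the bins of chromosome 17. How reads of repeated sequence were placed is given only as a filter on mapping quality, and its part in the RT of these bins was not tested.

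Beside the Q genes, Pou5f1, the gene of the pluripotency factor OCT4, had an RT of 3.51, above 84.8% of protein-coding genes. RT rose by 0.80 log2 from the H2-Q10 bin to the Pou5f1 bin, which adjoins it. The level of the Pou5f1 bin continued for 550 kb and 11 bins (mean 3.48, SD over bins 0.14) up to the first T genes.

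The T region spanned the end of this early domain. H2-T24, H2-T23 and H2-T22 shared its last bin, at 3.55. H2-T23 encodes Qa-1, a ligand of the CD94/NKG2 receptors of natural killer cells, and H2-T22 is bound by a group of gamma delta T cells. RT dropped by 1.00 log2 in the next bin, and H2-T3, which encodes the thymus leukemia antigen of intestinal epithelium, lay 148 kb beyond H2-T22 at 1.88. The median of 3.55 over the 4 T genes is that of a single bin, since the 4 genes lay in 2 bins. The last early bin held 32.6% repeated sequence and the H2-T3 bin 20.8%.

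The 12 M genes, each in a bin of its own, varied most of all the groups, from -1.74 at H2-M2 to 3.44 at H2-M5 with a median of 0.51. Of the 12, 7 (58.3%) were early and 5 late, where 72.9% of all protein-coding genes and 82.4% of those on chromosome 17 are early. The M10 genes, H2-M1, H2-M9 and H2-M11 are known from sensory neurons of the vomeronasal organ. These 9 genes, grouped after their values were seen, ran from -1.54 to 2.68 with a median of 0.31, and 5 (55.6%) were early and 4 late.

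**Figure D3:**
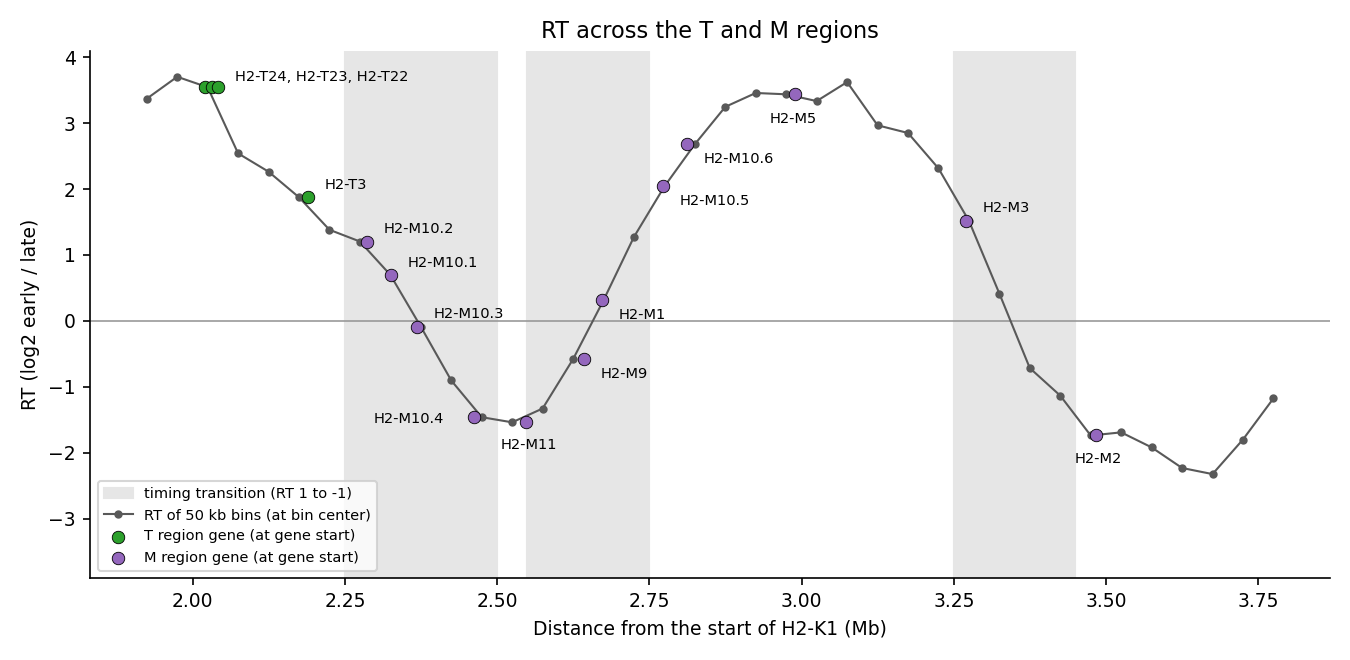
RT (log2 early over late) of the 50 kb bins at their centers (gray line) against distance from the start of H2-K1 in Mb, with the T genes in green and the M genes in purple at their starts, and timing transitions between RT 1 and -1 shaded. The M10 genes lie on both slopes of the late valley, H2-M10.4 and H2-M11 at its floor, and H2-M3 on the last descent.

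Going from H2-T3 outward, the values fell gene by gene. RT was 1.20 at H2-M10.2, 0.70 at H2-M10.1, -0.09 at H2-M10.3, -1.46 at H2-M10.4 and -1.54 at H2-M11. From there they rose again, to -0.58 at H2-M9, 0.31 at H2-M1, 2.04 at H2-M10.5 and 2.68 at H2-M10.6. H2-M10.3 was just below RT 0, by less than the noise SD of 0.16, and its value interpolated between bin centers was 0.02. H2-M1 was the member just above 0. The M10 genes at the ends of the array, H2-M10.2 and H2-M10.6, were thus early and H2-M10.4 in between was late.

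Timing transition regions (TTRs), called between bins at RT 1 and -1, numbered 3 in the locus, and each held the start of at least 1 M gene. The first fell from 1.20 to -1.46 over 200 kb, a slope of -13.3 log2 per Mb, and crossed 0 at 36369399, between H2-M10.3 and H2-M10.4. The second rose from -1.33 to 1.27 over 150 kb, at 17.4 log2 per Mb, and crossed 0 at 36657518, between H2-M9 and H2-M1. The crossings were 288 kb apart, so the late valley was short, and its 6 bins below 0 had a mean RT of -0.98, equal to the median over all 50 kb bins of the genome, -0.98. The third fell from 1.52 to -1.13 over 150 kb, at -17.7 log2 per Mb, and crossed 0 at 37343344, between the olfactory receptor genes Olfr103 and Olfr104-ps. H2-M3 was the only M gene with a start in the third TTR, and the other protein-coding genes starting there were olfactory receptor genes. The median steepness of the 1158 TTRs of the genome was 12.0 log2 per Mb. With limits at RT 2 and -2 the count in the locus was 0, since its lowest bin was at -1.74.

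The remaining M genes lay beyond the valley. H2-M5 was at 3.44 in an early plateau of 5 bins with a mean of 3.42, which also held 4 Trim genes at 3.25 and Gabbr1, a GABA-B receptor gene, and Mog, a myelin gene, at 3.34. H2-M3, which presents N-formylated peptides, lay on the third TTR at 1.52. Neighboring olfactory receptor genes followed this descent. The 20 with a start in the bins of the span ran from 3.62 at Olfr90 to -1.74 at Olfr109 and Olfr110. Of these 13 (65%) were early, against 72.9% of all protein-coding genes and 82.4% of those on chromosome 17, and the 20 genes lay in 9 bins. The 7 late ones were the only late protein-coding genes of the bins of the span other than H2 genes. H2-M2 was the last H2 gene, at -1.74, and the next protein-coding gene, Olfr110, shared its bin.

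The promoters of 3 M10 genes are shown because they are paralogs with similar sequence and different timing. H2-M10.3 (RT -0.09) lies at chr17:36368418-36368667 on the minus strand, H2-M10.4 (RT -1.46) at chr17:36462330-36462579 on the minus strand and H2-M10.5 (RT 2.04) at chr17:36772660-36772909 on the plus strand, from RefSeq (GRCm38.p6) as above. Capitals again mark CCAAT on either strand.
H2-M10.3: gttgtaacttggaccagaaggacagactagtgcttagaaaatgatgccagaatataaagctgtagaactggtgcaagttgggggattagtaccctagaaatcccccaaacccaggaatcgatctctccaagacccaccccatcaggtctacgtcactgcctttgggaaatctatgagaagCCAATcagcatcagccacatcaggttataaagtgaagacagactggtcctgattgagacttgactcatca
H2-M10.4: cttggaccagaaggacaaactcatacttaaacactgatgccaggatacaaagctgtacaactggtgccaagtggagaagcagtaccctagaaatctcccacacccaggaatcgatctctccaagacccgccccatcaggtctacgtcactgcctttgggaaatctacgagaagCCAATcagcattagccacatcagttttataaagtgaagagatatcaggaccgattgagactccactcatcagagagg
H2-M10.5: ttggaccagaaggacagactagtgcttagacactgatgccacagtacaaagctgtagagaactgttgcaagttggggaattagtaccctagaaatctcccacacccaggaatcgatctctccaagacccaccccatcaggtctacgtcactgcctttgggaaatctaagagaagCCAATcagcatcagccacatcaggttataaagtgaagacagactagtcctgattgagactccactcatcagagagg
The same CCAAT match, written CCAAT in the direction of the gene, stands near the same place in all 3 windows. H2-M10.3 and H2-M10.5 were 90.5% identical in coding sequence and 91.6% in these 250 bases, and their RT differed by 2.13 log2 at a distance of 404 kb. H2-M10.4 and H2-M10.6, 89.0% identical in coding sequence, were at -1.46 and 2.68, and 350 kb apart. Over the 15 pairs of the 6 M10 genes the identity of coding sequences was 84.7 to 90.5%, differences in RT ran from 0.51 to 4.14 log2, and 8 pairs lay on opposite sides of RT 0. With interpolated values, which put H2-M10.3 just above 0, 5 pairs did. Over the 15 pairs of Q genes, differences were 0 to 0.24 log2, with a median identity of 87.7% against 87.1% for the M10 pairs. The Q genes were at most 150 kb apart and the M10 genes at most 526 kb. The 15 pairs of each set reuse the same 6 genes and are not independent. The Q genes lay in 4 bins, and those that share a bin differ by 0 by construction, whereas each M10 gene has a bin of its own.

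RefSeq promoters were matched for 31 of the 34 genes and none was matched for H2-Ab1, H2-Q1 and H2-T24. The motifs CCAAT and kappa B, as spelled out above, were searched on both strands together with TGACG, the core of the X2 box of MHC promoters, and TATAAA, the TATA box. CCAAT, the core of the Y box of MHC promoters, was found in 27 of 31 windows (87.1%), against 33.8% of the 32851 RefSeq windows of the same length. No strand or spacing from other boxes was required, so a match need not be a Y box. The 27 include H2-Ke6, which does not encode an MHC chain. The kappa B site, known as an enhancer element of class I genes, was found in 4 (12.9%), against 0.213% of all windows, and these 4 were H2-K1, H2-D1, H2-Q6 and H2-Q7. TGACG was found in 12 (38.7% against 17.8%) and TATAAA in 12 (38.7% against 12.4%). No motif of the list lies within another. CCAAT was found in 11 of 12 windows of the M region and in 7 of 8 of the class II genes. The promoters of class I genes share ancestry and are not independent. CpG dinucleotides numbered 2 at the median over H2 promoters and 6 over all. They ranged from 0 to 5 in the M genes and from 2 to 14 in the H2-K1, H2-D1 and Q genes.

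**Figure D4:**
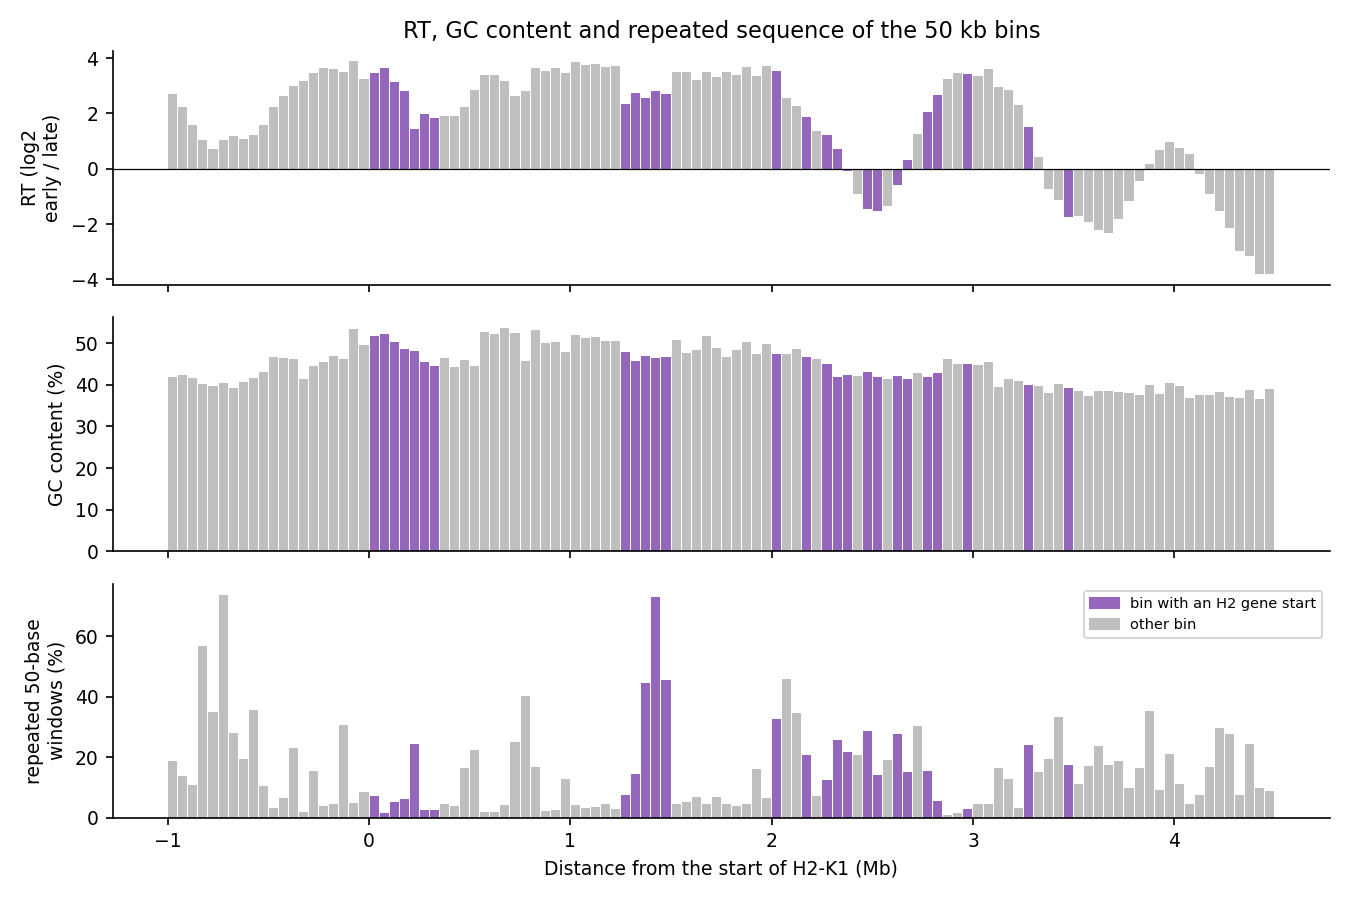
RT (top, log2 early over late), GC content (middle, percent) and share of 50-base windows found more than once in the genome (bottom, percent) of the 50 kb bins, against distance from the start of H2-K1 in Mb, with bins holding an H2 gene start in purple. GC content is lower in the M region than at the K end, and RT is below 0 only past the T genes and is early again at H2-M5. Within the span of the H2 genes, repeated sequence peaks in the Q genes, up to 73.0%, where RT stays between 2.55 and 2.80. In the flank before H2-K1, a bin with 73.8% repeated windows is at RT 1.02.

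The bins with an H2 gene start differed from the rest of the span in several measures, shown in the plot of RT with GC content and repeated sequence. The 26 bins had a median RT of 2.02, a GC content of 45.2% and 15.3% repeated windows, and the other 44 bins 3.33, 47.5% and 4.95%. Across the 70 bins RT rose with GC content (Spearman's rho 0.73, Pearson's r 0.72), as it did across the 1837 bins of chromosome 17 with sequence (0.77 and 0.75). RT fell with the share of repeated windows (Spearman's rho -0.55, Pearson's r -0.34), more than across chromosome 17 (-0.23 and -0.09). Neighboring bins share timing domains and base composition and are not independent points, so no p is given. Between the H2-K1 and H2-T24 bins, the 8 bins with over 20% repeated windows had a median RT of 2.75 (1.43 to 3.55), and the other 33 bins 3.44 (1.83 to 3.86). Without the H2-Ob bin, the 4 bins of the class II dip were at 1.83 to 1.99 with at most 4.70% repeated windows. Any part of repeated sequence in the values of the Q, T and H2-Ob bins was not tested.

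Genes that act with the H2 products were set beside them. All 13 genes of class I peptide supply and assembly were early, with a median RT of 3.07, where 72.9% of all protein-coding genes are early. Of the 13, 5 lie on chromosome 17, and Psmb9, Psmb8 and Tap1 share a bin. B2m, the light chain of every class I molecule, was at 3.07. The highest was Tapbp, tapasin, which lies close to H2-K1 on chromosome 17, at 3.88, and the lowest Nlrc5, the class I transactivator, at 1.17. Tap2 and Nlrc5 were the only ones below 2. All 6 class II genes of the list with a value were early, with a median of 3.53. Ciita, the class II transactivator, was at 2.98 and Cd74, the invariant chain, at 3.74. Rfx5 and Rfxap encode subunits of one factor that binds the X box, and were the highest and lowest at 3.75 and 0.45. Partners of class II thus had a higher median than the 4 classical class II genes (1.91), which lie in only 2 bins. The 5 nonclassical class II genes had a median of 3.14.

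**Figure D5:**
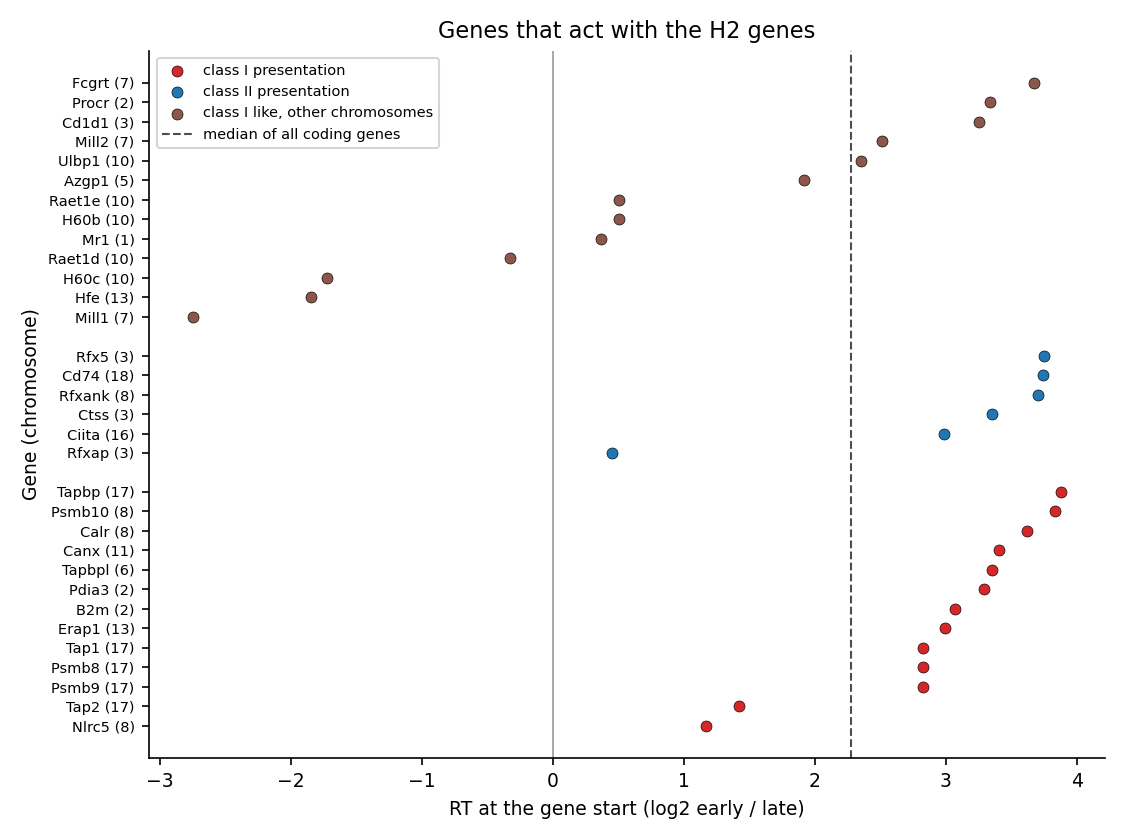
RT at the gene start (log2 early over late, horizontal axis) of genes of class I presentation, genes of class II presentation and class I like genes of other chromosomes, with the chromosome of each gene in parentheses and the median of all protein-coding genes (2.27) as a dashed line. The presentation genes are all above 0, and the class I like genes run from -2.75 to 3.68.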

How the data were processed

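Population-based replication timing was measured by Repli-seq in 2 early and 2 late S-phase libraries of F121-9 mESCs. The authors scaled reads to RPM per fraction and deposited, for each 50 kb bin (mm10), 1 log2 ratio of early over late. The submitters' processing notes name Bowtie2, SAMtools and bedtools. Mapping with Bowtie 2, a mapping quality filter and duplicate removal are described without saying whether they apply to Repli-seq. Any smoothing, any filter on bins, and whether and how replicates were combined are not given in the sources used here. A smoothed profile would spread steps over neighboring bins and lower the noise SD. Depth is unknown.

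Of 51427 deposited bins, those of the 19 autosomes and X (51153) entered the calculations. A deposited position was read as the start of its bin, since 5 bins then hold no assembled sequence, against 69 when it is read as the end. Each gene start (GENCODE vM21, GRCm38) took the value of its bin, and positions are written from 1. The H2 genes were grouped by symbol. The noise SD was estimated by comparing every bin with the average of both bins beside it (median absolute deviation), inside segments of at least 10 bins with a slope over 5 bins of at most 2.5 log2 per Mb. A TTR joined a bin at RT 1 or above to one at -1 or below, across gaps of at most 200 kb. Repeated sequence was the share of 50-base windows, on either strand, found more than once on chromosomes 1 to 19, X and Y. Segment bounds were drawn after the profile was seen. Coding sequences were assembled from the annotation, and promoters were the 250 bases before RefSeq starts. The starts of H2-DMa and H2-DMb2 in RefSeq are 3291 and 1942 bases from those of GENCODE.

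The members, groups and gene lists were chosen with earlier results of these data known. Named by value were the class Ia and class II genes, the Q, T and M genes with the highest and lowest RT, beside RT 0 or beside a TTR, Pou5f1, complement and tumor necrosis factor genes, the first gene outside either end, and the highest and lowest genes of each presentation list. Others were named after their values were seen. No test was run, since the design gives 1 value per bin. The alternatives covered the reading of the bin position, interpolation, gene bodies, smoothing, deviating bins, bins counted once, other biotypes and the limits of early and of TTRs. The noise estimate and the calling of TTRs were tested on simulated profiles, and the search for repeated windows on a random sequence. The simulated late domains were longer and later than the late valley of the locus. The other steps were not tested on simulated data. Calculations used Python 3.11.15 with numpy 2.4.6, pandas 2.3.3, scipy 1.17.1, numba 0.67.0, biopython 1.88 and matplotlib 3.10.9.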

Additional observations from a re-analysis of the deposited data

How the results depend on the processing

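No paired analysis was possible because replicates and fractions were already merged into single values, and for the same reason no library could be left out. Of 53 values under the alternatives, no median or difference changed sign, and shares and counts cannot. The yardstick was the noise SD of 0.16 log2 for medians, that of a difference (0.22) for H2-K1 minus H2-D1, the exact 95% binomial interval for the share of early genes and 1.5 times for counts, and 14 values moved past it. The share of early H2 genes ran from 79.4 to 91.2%, inside that interval under every alternative. The interval treats the 34 genes as independent, although they lay in 26 bins and neighboring bins share timing domains. It is therefore no measure of error for this share and cannot decide whether the share moved. The count of 14 thus says nothing about the stability of the share. The median of the T genes, which lay in 2 bins, moved from 3.55 to 3.29 with interpolation, 3.37 with a running median over 5 bins, 2.71 with each bin counted once, and 2.54 both with pseudogenes and with the bin read as ending at the deposited position. The median of the H2 genes moved from 2.45 to 2.70 with the running median, 2.62 without the bins over 3 noise SD from their neighbors and 2.02 with each bin counted once. The median of the class II genes moved from 1.99 to 2.41 without those deviating bins, with each bin counted once and with pseudogenes, the midpoint between the bin of H2-Ab1 and H2-Aa and that of H2-DMb1. With limits at RT 2 and -2 the number of TTRs was 0 in place of 3. Interpolation, added for these values after seeing the data, moved H2-K1 minus H2-D1 from 1.11 to 0.66 and the M10 pairs on opposite sides of RT 0 from 8 to 5. Since no value per replicate was analysed and depth is unknown, differences between bins are set only against noise from bin to bin, which leaves out differences between cultures. Genes of 1 bin share 1 value, the values are not split by allele, and gene positions are those of the reference strain.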

Other observations

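Of 13 class I like genes outside chromosome 17 with a value, 9 (69.2%) were early, close to the 72.9% of all protein-coding genes, and 4 late. Their median was 0.50, against 2.27 over all protein-coding genes. The highest was Fcgrt, the heavy chain of the neonatal Fc receptor, at 3.68. Cd1d1, which presents lipids, was at 3.26, Procr, the endothelial protein C receptor, at 3.34, and Mr1, which presents vitamin B metabolites, at 0.37. The late genes were Mill1 at -2.75, Hfe, which acts in iron uptake, at -1.84, and the NKG2D ligand genes H60c at -1.72 and Raet1d at -0.33. Mill1 and Mill2, related genes on chromosome 7, lay on either side of RT 0, at -2.75 and 2.51. The members of this list were chosen by family and not for their position, and Raet1e and H60b in it share a bin.

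Besides the 34 protein-coding genes, 11 H2 genes of other biotypes lay on chromosome 17, and 10 of them were early. That is near the background, since 82.4% of protein-coding genes of chromosome 17 and 87.1% of the 70 bins of the span were early. H2-K2, at the K end, was at 3.24. H2-Pa and H2-Pb shared the H2-Oa bin at 3.63, and H2-Ea-ps, the alpha chain gene of I-E, shared the H2-Eb1 bin at 1.83. H2-Bl, at 2.54, and H2-T-ps and H2-T10, at 2.26, filled the slope between H2-T22 and H2-T3. H2-M10.5-ps1, in the late valley at -0.90, was the only late one, and H2-M6-ps shared the H2-M5 bin at 3.44.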
